A study of Mus musculus with 8 samples.

Results

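The RNA of 10 genes that shorten the life of other mRNAs was measured in spleen neutrophils of WT and *Cxcr2-/-* mice. The 10 genes are Btg1, Btg2, Tob1, Tob2, Zfp36, Zfp36l1, Zfp36l2, Zc3h12a, Rc3h1 and Cnot6l. They were picked by symbol, each matched a single row of the count files through GENCODE M21, and they are 10 of the 55414 genes listed there. All 10 passed the filter on low counts, with between 980 and 156801 counts in each library. The 4 WT and 4 *Cxcr2-/-* libraries came from mice 10 weeks old, of the FVB background and kept in the same specific and opportunistic pathogen free housing. The WT mice carried intact Cxcr2, and the *Cxcr2-/-* mice lacked it in all cells from birth, so that the neutrophils were not the only cells without the receptor. The labels number the 4 libraries of each group as replicates and name no animals, sex or treatment, so p-values measure the spread between these samples. Each library was made from cells enriched with CD11b beads and then sorted for CD45, CD11b and Ly6G and against F4/80.

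The length of the poly(A) tail sets how long an mRNA lasts, and the CCR4-NOT complex is the main enzyme that removes it. Proteins of the BTG and TOB family bind the CAF1 deadenylases of that complex, speed up tail removal and slow cell division. Tristetraprolin, the product of Zfp36, and its relatives Zfp36l1 and Zfp36l2 bind AU-rich elements (AREs) in the 3′ UTR of cytokine and early response mRNAs and bring CCR4-NOT to them. Regnase-1, the product of Zc3h12a, cuts stem-loops in inflammatory mRNAs, Roquin-1, the product of Rc3h1, binds such stem-loops, and Cnot6l is a deadenylase of CCR4-NOT itself. In neutrophils and macrophages, tristetraprolin is best known for holding down cytokine production.

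Several of these mRNAs carry the element that the Zfp36 proteins bind. The heptamer TATTTAT, the core of an ARE, was searched on the sense strand of the longest 3′ UTR of each gene in GENCODE M21 (GRCm38), and 29% of the 12052 tested genes with a 3′ UTR held at least 1. It occurred 3 times in Zfp36, Zfp36l1, Zfp36l2 and Cnot6l, 2 times in Rc3h1, 1 time in Btg2 and Tob2, and not in Btg1, Tob1 or Zc3h12a. The 3 copies of Zfp36 lay within 774 bases, and among tested genes with a 3′ UTR of 0.8 to 1.2 times that length 19.9% held any. For Cnot6l, whose 3′ UTR has 6847 bases, the same share was 72.3%. The windows of 30 bases below show the 3 copies of Zfp36 and the first copy of Zfp36l1, Zfp36l2 and Btg2, with the heptamer in capitals, 5′ to 3′ on the minus strand where all of these genes lie.
Zfp36, chr7:28376965-28376994: agtgggcccttTATTTATgacgactttatt
Zfp36, chr7:28376950-28376979: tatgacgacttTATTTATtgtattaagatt
Zfp36, chr7:28376925-28376954: agattttatagTATTTATatatattgggtc
Zfp36l1, chr12:80108421-80108450: ttatcaaaacgTATTTATtgccaaactatg
Zfp36l2, chr17:84184913-84184942: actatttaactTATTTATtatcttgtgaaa
Btg2, chr1:134077248-134077277: aaatgaagagcTATTTATacatgttttttt
The first 2 windows of Zfp36 overlap. A match is a description of the letters and was not tested as a binding site.

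Zfp36 and Btg2 are also known as early response genes, and the promoters of both held a motif of that class. RefSeq promoters (GRCm38.p6, 250 bases before to 50 bases after a start site) were found for 9 of the 10 genes, with no entry for Zfp36l2. Besides the 2 motifs below, the TATA and GC boxes were searched. A TATA box was in Btg1, Tob1 and Zfp36l1 (13.6% of all promoters). A GC box was in each of the 9 but Zfp36l1 (35.7% of all promoters). The full cAMP response element TGACGTCA was in the promoter of Btg2 and in none of the other 8 genes, and 1.79% of 32851 promoters held it. The CArG box, to which serum response factor binds, was in the promoter of Zfp36 and in none of the other 8, and 1.63% of all promoters held one. Both patterns are the same on either strand, and the 2 motifs are in different genes and do not overlap. Each is shown in a window of 30 bases on the minus strand, with the motif in capitals.
Btg2, chr1:134079303-134079332: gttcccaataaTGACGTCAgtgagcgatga
Zfp36, chr7:28379267-28379296: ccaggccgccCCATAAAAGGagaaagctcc

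The total of counts on genes was between 34220182 and 46233555 per library, and Cxcr2 RNA followed the label of every library, from 1719 to 2252 CPM in WT and from 12.9 to 20.7 CPM in *Cxcr2-/-*. CPM are a gene's counts relative to the total of its library, corrected by TMM. Reads outside annotated genes made up 31.4% to 41.5% of all counted reads, ambiguous and multiply aligned ones included, in WT and 26.7% to 31.9% in *Cxcr2-/-* libraries, and the 10 most abundant genes took 9.45% to 11.6% and 17% to 19.2% of the counts on genes, and the part of these differences in the results was not tested. Neutrophil markers were high throughout, and the sum of 10 of them was between 41182 and 57195 CPM in WT and between 89796 and 115142 CPM in *Cxcr2-/-* libraries. Csf3r, 1 of the 10, went the other way, with means of 6960 CPM in WT and 3334 CPM in *Cxcr2-/-* libraries. The first principal component separated the groups (69.2% of the variance). The second (12.3%) put *Cxcr2-/-* replicates 1 and 2 on one side and replicates 3 and 4 on the other, which shows in some values below.

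Of the 10 genes, 8 fell in *Cxcr2-/-* neutrophils, none rose and 2, Tob2 and Zfp36l1, did not pass the test. The test was edgeR's quasi-likelihood fit over 16778 genes, and a gene passed with a Benjamini-Hochberg adjusted p under 0.05. Among all genes tested, 21.0% were lower, 23.7% higher and 44.7% changed in either direction by that rule, with 3526 lower and 3969 higher, or 4391 lower and 3076 higher with upper-quartile scaling. The median log2 fold change, *Cxcr2-/-* over WT, was -1.03 for the 10 genes and 0.01 for all tested genes. In 8 of the 10 the 4 *Cxcr2-/-* libraries lay below the 4 WT libraries without overlap, which held for 19.1% of all tested genes (41.6% in either direction). With the 1.5-fold threshold of the study's methods added, 7 of the 10 passed as lower, against 15.7% of all tested genes. As in all sorted bulk samples, less RNA per cell and fewer cells that carry the RNA cannot be told apart.

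**Figure D1:**
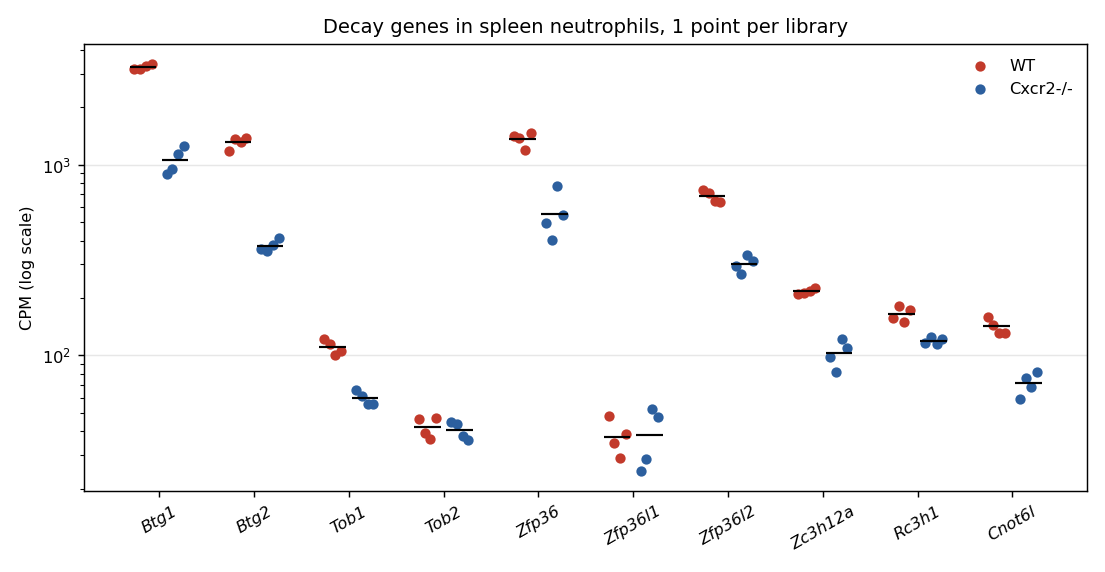
CPM (log axis) of each of the 10 genes in every library, WT in red and *Cxcr2-/-* in blue, with 1 point per library and a black line at the group mean. The blue points lie below all red points for 8 genes, and the ranges of the groups overlap for Tob2 and Zfp36l1.

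Btg1 and Btg2, the antiproliferative partners of CAF1, fell the most. Btg1, on chromosome 10 from 96617006 to 96622809 of GRCm38 (ENSMUSG00000036478), had levels of 3155, 3151, 3276 and 3353 CPM for WT replicates 1 to 4, and of 889, 948, 1141 and 1248 CPM for *Cxcr2-/-* replicates 1 to 4. Every *Cxcr2-/-* library was thus far below every WT library, and replicates 3 and 4 were the highest of the knock-out group. Btg1 changed by -1.61 on the log2 scale (SE 0.13, 95% confidence interval -1.89 to -1.34, edgeR's adjusted p = 1.18e-06).

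Btg2 (ENSMUSG00000020423), induced by p53 and by growth signals, lies on chromosome 1 from 134075170 to 134079120. Its WT levels were 1174, 1364, 1311 and 1374 CPM, and its *Cxcr2-/-* levels were 359, 351, 379 and 414 CPM. The knock-out libraries were close to one another and far below the WT mean of 1306 ± 92.2 CPM (SD, n = 4). Its change was the largest of the 10, at -1.80 on the log2 scale (SE 0.10, edgeR's adjusted p = 1.37e-07), and 2.67% of all tested genes had a log2 fold change as low or lower.

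The TOB proteins differ from BTG1 and BTG2 in a longer tail that binds the poly(A)-binding protein. Tob1 (ENSMUSG00000037573, chromosome 11, 94211454 to 94215495) was at 121, 114, 101 and 105.5 CPM in WT libraries, while the knock-out libraries had 66.1, 61.1, 55.8 and 56.0 CPM. The groups stayed apart, and Tob1 changed by -0.89 (log2, SE 0.09, edgeR's adjusted p = 1.08e-05). Tob2 (ENSMUSG00000048546, chromosome 15, 81848272 to 81858796) had 46.4, 39.15, 36.6 and 46.9 CPM in WT and 44.6, 43.9, 37.6 and 35.9 CPM in *Cxcr2-/-*. Its groups lay over each other, with a log2 fold change of -0.06 (95% confidence interval -0.30 to 0.18, adjusted p = 0.685 in edgeR), so that a fall as large as that of Tob1 is outside the interval. GENCODE M21 has an antisense gene, Gm49476, over 1 exonic stretch of Tob2, and it had no counts in any library.

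Among the tristetraprolin genes, Zfp36 and Zfp36l2 fell and Zfp36l1 did not pass. Zfp36 (ENSMUSG00000044786, chromosome 7, 28376784 to 28380253) had WT levels of 1406, 1383, 1198 and 1459 CPM and knock-out levels of 492.5, 401, 773 and 543 CPM. *Cxcr2-/-* replicate 3 stood highest in its group and still below every WT library. Its log2 change of -1.30 (SE 0.17, edgeR's adjusted p = 6.67e-05) moved between -1.52 and -1.17 as single libraries were left out.

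Zfp36l2 (ENSMUSG00000045817, chromosome 17, 84183931 to 84187947), needed for blood stem cells and lymphocyte development, showed 736, 713, 645 and 637 CPM for the WT libraries and 293, 267, 334 and 311 CPM for the *Cxcr2-/-* libraries. No library of one group reached the other, and the log2 change came to -1.18 (SE 0.10, edgeR's adjusted p = 2.57e-06). Genes on the opposite strand overlap Zfp36 (Gm44710) and Zfp36l2 (AC132455.1) in GENCODE M21, and neither had more than 1.09 CPM in any library.

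Zfp36l1 (ENSMUSG00000021127, chromosome 12, 80107754 to 80113013) acts with Zfp36l2 in lymphocytes. Its levels were 48.1, 34.8, 29.02 and 38.5 CPM in WT and 24.8, 28.75, 52.2 and 47.5 CPM in *Cxcr2-/-* replicates 1 to 4. The knock-out group thus held both the lowest and the highest library of all 8, with replicates 1 and 2 below every WT library, replicate 3 above all of them and replicate 4 just under the highest. The log2 fold change of 0.03 had a 95% confidence interval from -0.46 to 0.51 (adjusted p = 0.934 in edgeR), and its sign turned in 10 of 17 alternative fits. Within the *Cxcr2-/-* group, progenitor markers (Mpo, Elane, Prtn3, Ctsg) split along the same line. Their sums were 53.4 and 54.7 CPM in replicates 1 and 2 and 208 and 351 CPM in replicates 3 and 4. WT sums were 2.40 to 12.5 CPM, and WT replicate 3, with the highest of these, had the lowest WT level of Zfp36l1 (29.02 CPM). Monocyte and macrophage markers summed to 220 and 204 CPM in *Cxcr2-/-* replicates 1 and 2 and to 294.5 and 299.7 CPM in replicates 3 and 4. The WT sums were higher than all of these, at 443 to 541 CPM. Csf1r made up most of the knock-out sums, with 202, 190, 269 and 267.5 CPM. With a covariate from markers of other cells, progenitor markers left out, the log2 fold change of Zfp36l1 was 0.146 (SE 0.194, adjusted p = 0.575 in edgeR). The part of the progenitors, and that of monocytes and macrophages alone, in the Zfp36l1 values was not tested. M21 also places an antisense gene (Gm26669) over Zfp36l1 that the count files do not list.

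Regnase-1 and Roquin-1 act on stem-loops rather than AREs, and the genes of both fell. Zc3h12a (ENSMUSG00000042677, chromosome 4, 125118423 to 125127840) was at 210.4, 212, 217.5 and 226 CPM in WT, a narrow range, against 98.4, 81.5, 122 and 109 CPM in the knock-out. The log2 difference was -1.07 (SE 0.12, edgeR's adjusted p = 1.46e-05), and the groups did not overlap. Rc3h1 (ENSMUSG00000040423, chromosome 1, 160906418 to 160974978) went from 157, 182, 150.5 and 173 CPM to 117, 125, 115 and 121 CPM. Its fall was the smallest of the 8, at -0.47 on the log2 scale (SE 0.09, edgeR's adjusted p = 9.54e-04), and it is the gene that does not reach 1.5-fold.

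Cnot6l (ENSMUSG00000034724, chromosome 5, 96070333 to 96164171), the catalytic CCR4-type subunit, had 159, 145, 132 and 132 CPM as WT levels and 59.4, 76.1, 68.4 and 82.2 CPM as knock-out levels. The 2 groups were well apart, by -0.99 on the log2 scale (SE 0.11, edgeR's adjusted p = 2.05e-05). Cnot6, its close relative in the same complex, went the other way, from 55.6 ± 4.10 CPM to 73.0 ± 9.88 CPM (SD, n = 4; log2 fold change 0.39, adjusted p = 0.00972 in edgeR).

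**Figure D2:**
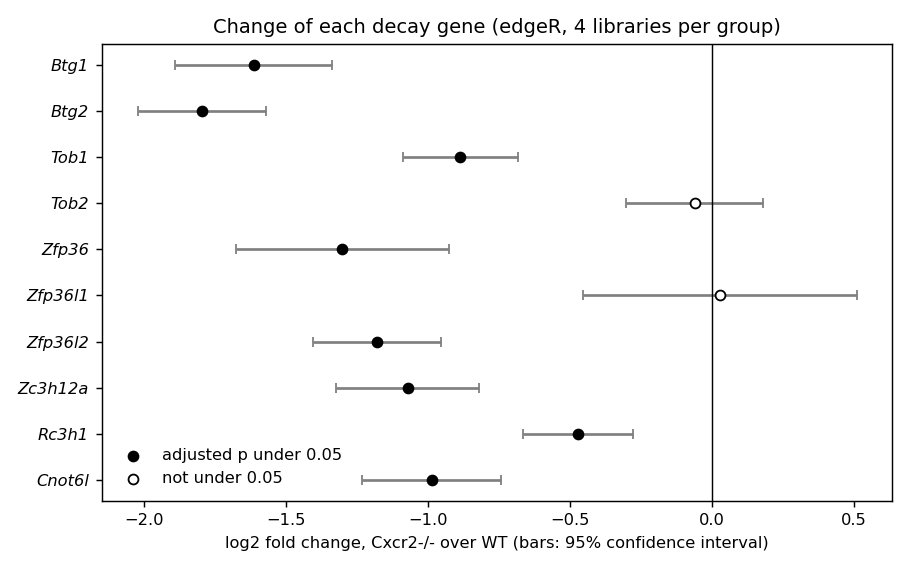
Log2 fold change of each gene, *Cxcr2-/-* over WT, with bars for the 95% confidence interval of the edgeR fit on 4 libraries per group. Filled points passed an adjusted p of 0.05, and the open points of Tob2 and Zfp36l1 have intervals that cross 0.

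Levels of different genes can be set side by side only per length of their exons. On the scale of CPM per kb, the WT order was Btg1 (613 ± 18.7), Btg2 (476 ± 33.6), Zfp36 (392.4 ± 32.8), Zfp36l2 (193 ± 14.0), Zc3h12a (75.1 ± 2.46) and Tob1 (48.3 ± 3.92), followed by Rc3h1 (14.7 ± 1.28), Cnot6l (13.8 ± 1.26), Zfp36l1 (12.6 ± 2.68) and Tob2 (6.34 ± 0.780), as mean ± SD over 4 libraries. Rc3h1, Cnot6l and Zfp36l1 did not differ from one another beyond their SD. In *Cxcr2-/-* libraries the order began with Btg1 (200.2 ± 31.7), Zfp36 (159 ± 45.6) and Btg2 (137 ± 10.2 CPM per kb), and Zfp36 overlapped with both within its SD. Exon lengths are those of all M21 transcripts of a gene together, which the cells may not all use.

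Within families, the shares of Tob1, Tob2 and Zfp36l1 were larger in *Cxcr2-/-* libraries and that of Btg2 was smaller. Shares are relative to the other members. In CPM, Tob1 was lower, and Tob2 and Zfp36l1 did not pass. Per length, Zfp36l1 made up 1.81% to 2.55% of the tristetraprolin family in WT and 3.55% to 6.10% in *Cxcr2-/-* libraries. Tob1 went from 3.85% to 4.88% of the BTG and TOB family to 5.86% to 8.63%, and Tob2 from 0.478% to 0.641% to 1.29% to 2%. Btg2 went from between 39.4% and 43.2% to between 35.9% and 39.1%. The shares of the other members overlapped between the groups, at 51.9% to 55.1% in WT and 50.3% to 56.7% in the knock-out for Btg1, 64.2% to 68.5% and 57.5% to 66.5% for Zfp36, and 29.4% to 34% and 28.3% to 37.7% for Zfp36l2.

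The ratio of 2 genes within a library does not depend on how the libraries are scaled, and all 9 pairs within the 2 families were compared with an exact permutation test, two-sided. For 4 libraries against 4 its smallest p is 0.0286, and 7 pairs reached it (0.0367 after Benjamini-Hochberg adjustment over the 9). The log2 ratio of Tob1 to Tob2 was 1.39 ± 0.162 in WT and 0.56 ± 0.068 in *Cxcr2-/-* (SD, n = 4 each, exact permutation p = 0.0286). That of Zfp36l1 to Zfp36l2 was -4.20 ± 0.253 and -3.04 ± 0.426, higher in each knock-out library than in any WT library. For the other 2 pairs the test was not passed, which does not show that they moved alike. The log2 ratio of Btg1 to Btg2 was higher by 0.17 in *Cxcr2-/-* (exact permutation p = 0.114, adjusted 0.129), and that of Zfp36 to Zfp36l2 was lower, with a difference of -0.16 (exact permutation p = 0.314, adjusted 0.314).

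**Figure D3:**
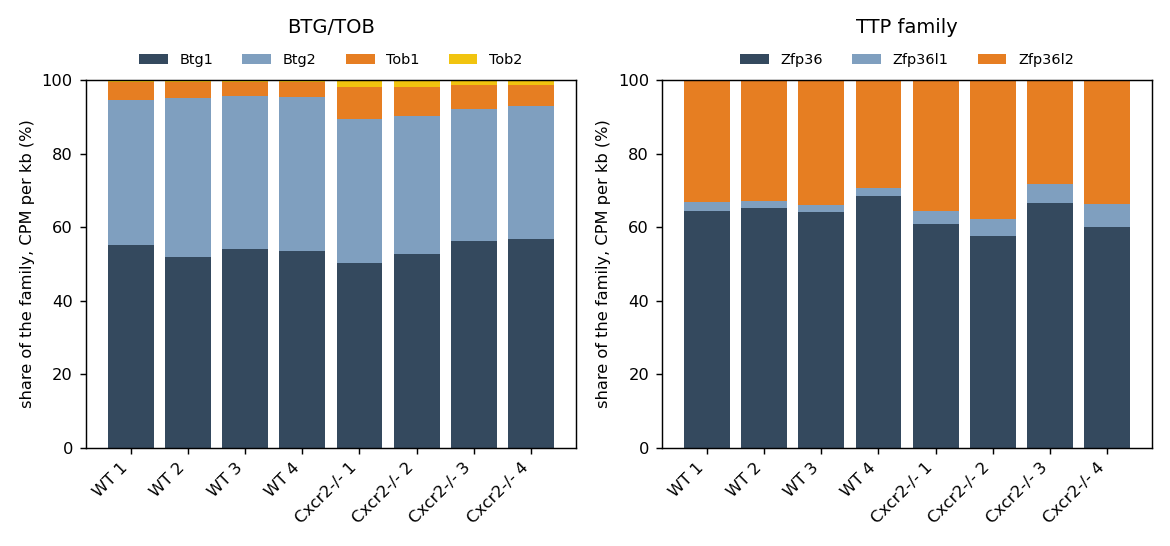
Share of each gene in its family in every library, from CPM per kb (percent, bars stacked to 100). Tob1 and Tob2 (left) and Zfp36l1 (right) take larger shares in the 4 *Cxcr2-/-* libraries than in the 4 WT libraries. None of these genes passed as higher in CPM.

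Relatives outside the 10 genes differed in level and direction. The mean of Btg3 was 2.97 ± 0.346 CPM for WT against 2.01 ± 0.784 CPM for the knock-out (SD, n = 4, adjusted p = 0.112 in edgeR), and Btg4 and Zfp36l3 had at most 4 and 2 counts in a library. Rc3h2, which encodes Roquin-2, fell with Rc3h1, from 195.5 ± 19.1 to 142 ± 23.4 CPM (log2 fold change -0.465, adjusted p = 0.00786 in edgeR). Of the other Regnase genes, Zc3h12d rose from 18.3 ± 2.84 to 28.8 ± 5.22 CPM (log2 fold change 0.65, adjusted p = 0.00317 in edgeR), while Zc3h12b and Zc3h12c did not pass (adjusted p 0.263 and 0.144 in edgeR).

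Other genes of mRNA decay were followed in 6 lists, which hold the decay enzymes and their partners, other RNA-binding regulators, and the enzymes that act on these proteins. Of 75 genes tested, 23 rose, 13 fell and 39 did not pass, and with upper-quartile scaling 17 rose and 19 fell. In CCR4-NOT, 3 of the other 10 subunits rose (Cnot9, Cnot6 and Cnot11), Cnot10 fell and 6 did not pass, with a median log2 fold change of 0.18, where 23.7% of all tested genes were higher and 21.0% lower. Cnot9, a scaffold subunit that contacts tristetraprolin and the miRNA machinery, went from 9.50 ± 1.39 to 18.9 ± 1.36 CPM, a log2 fold change of 0.99. The deadenylase genes Cnot7 and Cnot8, the partners of BTG and TOB proteins, had log2 fold changes of 0.19 and 0.18 and did not pass (adjusted p 0.139 and 0.0960 in edgeR).

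In decapping and 5′ to 3′ decay, 9 of 18 genes were higher and 1 lower (median log2 fold change 0.36), beside 23.7% and 21.0% of all tested genes. Lsm6, Lsm5, Lsm7 and Lsm2, subunits of the ring that binds the shortened tail and of its splicing counterpart, rose with log2 fold changes of 1.35, 1.25, 1.24 and 1.18, from low levels (at most 3.01 CPM on average in WT). The gene that fell was the helicase gene Ddx6, with means of 822 ± 79.5 CPM for WT and 614 ± 43.2 CPM for the knock-out (log2 fold change -0.42). Of 14 exosome genes tested, 3 rose (Exosc9, Exosc7 and Dis3l), 2 fell (Exosc5 and Exosc1) and 9 did not pass, close to or under the same shares of all tested genes (23.7% and 21.0%), and Exosc6 had no counts in any library.

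Among the other poly(A) genes, Pabpc4 rose (log2 fold change 0.71), Parn and Pan3 fell (-0.64 and -0.39) and 5 of 8 did not pass. Of 15 other RNA-binding regulators, 3 were higher (Zc3h12d, Celf1 and Khsrp) and 3 lower (Rc3h2, Arid5a and Pum2), close to the shares of 23.7% and 21.0% over all tested genes. Of the enzymes that act on tristetraprolin, Regnase-1 or Roquin, 4 of 10 rose and 4 fell. Mapkapk3, a kinase of the p38 pathway, and Ppp2cb and Ppp2r1a, subunits of the phosphatase that dephosphorylates tristetraprolin, were higher (log2 fold changes of 0.74, 0.565 and 0.40), as was Mapkapk2. Malt1, the protease that cleaves Regnase-1 and Roquin, was lower (-0.43), as were Btrc, Mapk14 and Ikbkb.

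**Figure D4:**
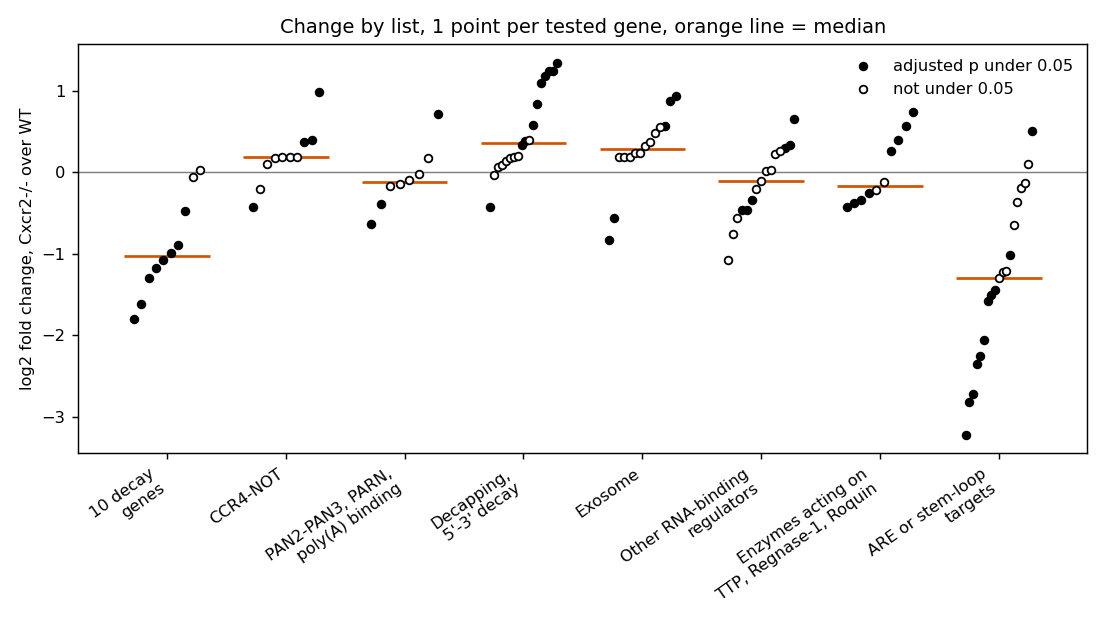
Log2 fold change of each tested gene, *Cxcr2-/-* over WT, for the 10 decay genes and 7 lists, filled where the adjusted p was under 0.05, with the list median in orange. The medians are -1.03 for the 10 genes, between -0.17 and 0.36 for the 6 lists of decay machinery, and -1.29 for known targets. Some of these targets had few counts.

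Known ARE and stem-loop targets of these proteins were mostly lower too. Of 22 such genes, 19 were tested, 10 fell, 1 rose and 8 did not pass, with a median log2 fold change of -1.29. Over all tested genes, 21.0% were lower and 23.7% higher. The median is the value of Cxcl1, which did not pass and was near the floor (means of 0.630 CPM in WT and 0.250 CPM in the knock-out). Ptgs2, which encodes cyclooxygenase-2, went from 741 ± 124 to 79.3 ± 45.2 CPM, and the early response gene Fos from 2794 ± 163 to 397 ± 170.2 CPM (n = 4 each). Their log2 fold changes were -3.22 and -2.82, beside -2.72 for the chemokine gene Ccl3 and -2.35 for Dusp1, with adjusted p of 1.42e-05, 4.93e-06, 1.38e-04 and 5.81e-06 in edgeR. The gene that rose was Tnf, the best known target of tristetraprolin, from 34.6 ± 5.30 to 49.1 ± 7.28 CPM, and its groups overlapped (log2 fold change 0.50, adjusted p = 0.00831 in edgeR). Fos, Dusp1 and Ier3 of this list are also among the early response genes counted below. That count does not cover the whole class, and other genes of the target list may belong to it.

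Early response genes fell alongside 8 of the 10 genes, while markers of other cells moved in both directions. For the counts in this paragraph, the shares over all tested genes were 21.0% lower and 23.7% higher. Of 11 early response genes outside the 10, 10 fell and none rose, and their sum was between 11100 and 12429 CPM in WT and between 1624 and 3394 CPM in *Cxcr2-/-* libraries, and none of them was at 0 in all libraries. Of 10 proliferation genes, 9 rose, and their sum went from between 356 and 400.4 CPM to between 951 and 1058 CPM. Of the 10 neutrophil markers, 8 rose, Csf3r fell and 1 did not pass. B cell markers fell for 5 of 7 genes (sums of 71.4 to 153 CPM in WT and 30.8 to 71.6 CPM in the knock-out). T cell markers fell for 2 of 4 tested (with overlapping sums of 112 to 135 CPM in WT and 100 to 151 CPM in the knock-out). Cd3d made up most of the T cell sums, at 80.1 to 110 CPM in WT and 87.3 to 135.5 CPM in the knock-out. Cd3e of the same list had at most 0.563 CPM in any library. Of 7 monocyte and macrophage markers 2 fell and 1 rose (443 to 541 CPM and 204 to 299.7 CPM), Adgre1, which encodes the F4/80 of the sort, among those that fell. Markers of NK, dendritic, erythroid and platelet cells summed to at most 24.4 CPM in any library, those of eosinophils to at most 56.6 CPM. Among these, Nkg7 of the NK list and Epx and Prg2 of the eosinophil list rose. Siglecf of the eosinophil list, Zbtb46 of the dendritic list and Itga2b of the platelet list fell. All 4 progenitor markers rose, with a median log2 fold change of 5.01. A covariate was made from the mean level of the markers of other cells in this paragraph, with the progenitor markers left out. With it, the same 8 genes were lower, with log2 fold changes of -1.55 for Btg1, -1.77 for Btg2, -1.22 for Zfp36 and -1.11 for Zfp36l2. The part of the progenitor markers and of the early response and proliferation genes was not tested.

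The gene most like each of 9 of the 10 over the 8 libraries was taken as that with the smallest root mean square difference of centred log2 CPM, among 4207 genes whose log2 CPM averaged 5 or more. Trem1, an activating receptor of myeloid cells, was closest to Btg1 (difference 0.103), Cd300ld2 to Btg2 (0.088), Cxcr4, the receptor that retains neutrophils in the marrow, to Tob1 (0.057), and Axin1 to Tob2 (0.048). Mean Cxcr4 RNA was 645.7 CPM in WT and 351.2 CPM in *Cxcr2-/-* libraries. By flow cytometry the study found a higher percentage of Cxcr4+ cells among knock-out spleen neutrophils, which is a different measure. Nfkbid, an IκB protein gene on the target list, was closest to Zc3h12a (0.078), Pnrc1 to Zfp36l2 (0.091), Rab10os to Zfp36 (0.138), Phf3 to Rc3h1 (0.044) and Arhgap18 to Cnot6l (0.066). Reads of Cd300ld2 can be shared with its paralogs, and Rab10os is an antisense gene.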

How the data were processed

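Spleen neutrophils of 4 WT and 4 *Cxcr2-/-* samples were profiled by RNAseq, 1 library per labelled replicate. Per the study's methods and the labels, the authors removed ribosomal RNA, made directional libraries and sequenced paired ends, and they trimmed the reads. STAR alignment was to mm10 and HTSeq gave the count of each gene. The deposited values are raw counts. Versions and the strand setting are not given in the sources used here, and reads of antisense genes are thus uncertain. Of 55414 identifiers, 52133 matched GENCODE M21, 52096 of them with a higher version number, so the counting used a later annotation, and whether its assembly was mm10, as the study states for the alignment, is uncertain. Identifiers without an entry held 1.42% of counts. Positions and exon lengths are those of M21 on GRCm38.

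Counts were tested in R 4.3.3 with edgeR 4.0.16 (quasi-likelihood, TMM, filterByExpr, Benjamini-Hochberg over 16778 genes). DESeq2 1.42.0, the tool of the study, was an alternative, as were RLE, upper-quartile and total-count scaling, no filter, at least 10 counts in every library, protein-coding genes only, a covariate for other cells, the replicate number as a block, and each library left out. Steps were tested on simulated data. No pair of replicates was as close as counting error alone would make it, with a chi-square of 23.9 to 99.0 for each gene on average. Depth, 34220182 to 46233555 counts on genes, limits precision only for genes of few counts.

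The 10 genes and all lists were chosen with earlier results of these data known. Named genes were the 10, their paralogs, up to 4 passing genes of largest change per list, and the most similar gene of each, which for Zfp36l1 is not reported here. Dis3l, Ddx6, Tnf, Cxcl1, Celf1, Khsrp, Mapkapk2, Btrc, Mapk14, Ikbkb, Cnot7 and Cnot8 were added after values were seen. So were Adgre1, Csf1r, Cd3d, Cd3e, Nkg7, Epx, Prg2, Siglecf, Csf3r, Zbtb46 and Itga2b, and the motifs, shares and ratios.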

Additional observations from a re-analysis of the deposited data

Results flagged for a closer look

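Each of the 10 genes and each list sum was examined for a library far from the other 3 of its group, in 58 groups of 4, where chance alone marks about 1 in 20. None of the 10 genes had such a library. The summed exosome genes were at 254.7 CPM in *Cxcr2-/-* replicate 1 and between 223 and 228 CPM in the other 3 knock-out libraries.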

How the results depend on the processing

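All 8 genes that fell stayed lower with an adjusted p under 0.05 in each of 17 other fits (DESeq2, the scalings, filters, gene sets, the covariate, the block and each library left out), and Tob2 passed in none. The count of genes lower was 8 in each of them and 7 with the 1.5-fold threshold, and it was 8 as each library was left out. Upper-quartile scaling moved the median of all tested genes by -0.12 and the share of calls that are lower from 47.0% to 58.8%, and the 8 falls were each larger than that shift. Zfp36l1, at 0.03, took the opposite sign with RLE (-0.00077), upper-quartile (-0.0891) and total-count scaling (-0.0412), at least 10 counts in every library (-0.0052), protein-coding genes (-0.0396) and the replicate block (-0.0183), and lay between -0.17 and 0.19 with a library left out, and it passed in no fit. Requiring 1.5-fold took the 6 machinery lists to 12 genes higher and 2 lower, of 75 tested. Over all tested genes 15.7% were higher and 15.7% lower by that rule. The target list went to 0 higher, since Tnf is short of that fold, and kept its 10 lower. No label ties libraries of the same number to each other, and their deviations from the group means had correlations of 0.15, -0.19, 0.245 and -0.31. Libraries of different numbers were not compared in this way, so these values cannot show whether the numbers pair them. With the replicate block 3349 genes were lower and 3719 higher, against 3526 and 3969 without it. The study's depth leaves Zfp36l1 and Tob2 with ample counts, and the spread between libraries sets their intervals.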

Other observations

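The ARE heptamer was also counted over the 3′ UTRs of all tested genes. It was in 34.5% of 2430 genes that were lower in *Cxcr2-/-* neutrophils, in 25.4% of 3603 that were higher and in 28.9% of 6019 that did not pass. Their 3′ UTRs differ in length, with medians of 1392, 954 and 1117 bases. Among 3′ UTRs of 1000 to 2000 bases, where the medians are between 1421 and 1440, the shares were 34%, 29.1% and 31.9%. These shares are descriptions and were not tested. Genes that share a family or a transcription factor are not independent of one another.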
